A study of Homo sapiens with 2 samples.

Results

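The peaks described here are those that the authors' shared peak list places on contigs of the human genome build hg19 outside the assembled chromosomes. They were chosen by the sequence name on each line, which marks unlocalised contigs (assigned to a chromosome but to no place on it) and unplaced contigs (assigned to no chromosome), and lines with the same peak name were taken as pieces of 1 peak. The list held 392 such peaks in 499 pieces on 54 contigs, of 164008 peaks in 199201 pieces on 87 sequences. Of the 392 peaks, 147 lay on 17 unlocalised contigs and 245 on 37 unplaced contigs. The comparison is with the 160723 peaks (195357 pieces) on chromosomes 1 to 22.

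Nascent strand sequencing maps starts of DNA replication from short new DNA that its RNA primer shields against digestion by lambda exonuclease. The 2 libraries come from U2OS, an osteosarcoma cell line labelled WT, taken 2 hours after thymidine was removed from cells arrested by a double thymidine block before S phase. They are replicates of 1 group, no label states that they came from separate cultures, and no undigested or unsynchronised sample was analysed here. Positions are those shared by both libraries, while the fold enrichment and −log10 q are the authors' values for the whole peak of replicate 1, so no value has an error over replicates.

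Contigs left out of the chromosomes are often stretches that could not be placed because near-identical copies of them occur elsewhere, such as satellite arrays, recent duplications and the ribosomal RNA gene repeats. A cell can hold many more copies of such a sequence than the build shows, and reads from all copies can fall on the copy that was assembled. Fold enrichment compares reads with a local expectation, whereas −log10 q measures how far the count exceeds that expectation and, at a given fold, rises with the number of reads. Read numbers per peak, the treatment of reads that match several places and the use of a control library are not stated in the labels or the files.

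The number of peaks differed widely between contigs. The 27 contigs with 5 or more peaks held 331 of them, and 3 contigs held 106 (27.0%), namely gl000225 with 49 peaks, gl000204 with 29 and gl000228 with 28. Next came gl000192 with 23 peaks, gl000220 with 18, gl000194 and gl000201 with 13 each, gl000193, gl000216 and gl000222 with 12 each, gl000209 with 11, and gl000197 and gl000212 with 10 each. Contig gl000224 had 9 peaks, gl000202 and gl000214 had 8 each, gl000206, gl000211, gl000219 and gl000243 had 7 each, gl000195, gl000217 and gl000234 had 6 each, and gl000229, gl000231, gl000237 and gl000249 had 5 each. The other 27 contigs shared 61 peaks. Contigs gl000199, gl000213, gl000218, gl000221 and gl000227 had 4 peaks each. Contigs gl000191, gl000210, gl000232, gl000242 and gl000248 had 3 each. Contigs gl000205, gl000223, gl000233, gl000235, gl000236, gl000240, gl000241, gl000244 and gl000247 had 2 each. Contigs gl000198, gl000200, gl000208, gl000215, gl000230, gl000238, gl000239 and gl000246 had 1 each. On these 27 contigs the median fold of a contig lay between 2.78 and 7.23, and their highest peak reached 11.5-fold.

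Peaks on the contigs were enriched to about the same degree as those on the chromosomes. The median fold was 4.76 on contigs (quartiles 3.69 and 6.30, exact 95% interval of the median 4.47 to 4.99) and 4.73 on chromosomes 1 to 22 (quartiles 3.79 and 6.38). The intervals given here and below treat peaks as independent and cover counting error only. Between contigs the medians spread more widely than between chromosomes. Contig medians ran between 3.68 (gl000195 and gl000219) and 8.94 (gl000237, 5 peaks), and chromosome medians between 4.51 (chromosome 6) and 5.32 (chromosome 19), with a mean of 4.72 ± 0.195 (SD, n = 22 chromosomes). Of the 27 contigs, 13 lay below that chromosome range, 8 within it and 6 above it. A contig has far fewer peaks than a chromosome, and the spread was not tested.

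**Figure D1:**
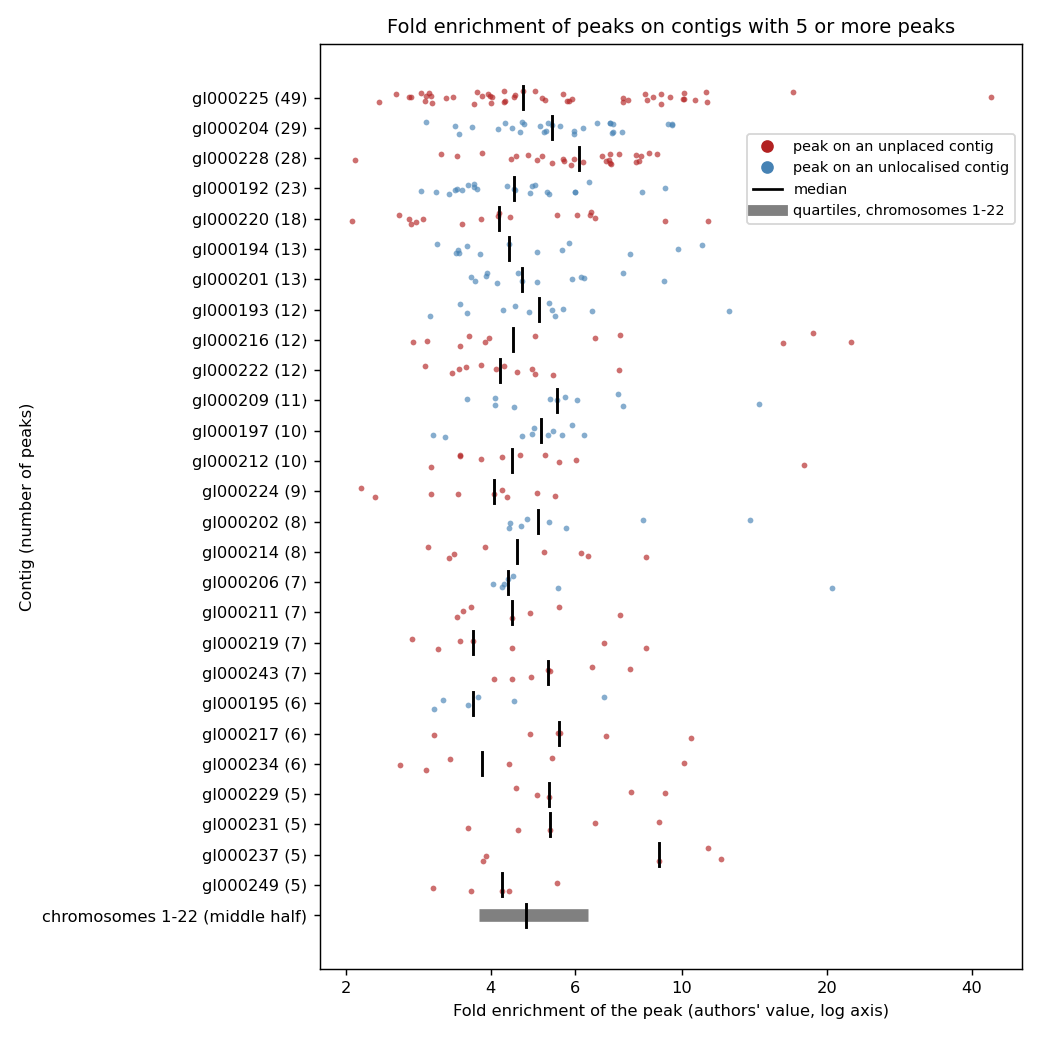
Fold enrichment of each peak (horizontal log axis) on the 27 contigs with 5 or more peaks (rows, number of peaks in brackets), with black lines for medians and the quartiles of chromosomes 1 to 22 as a grey bar in the last row. The contig medians lie between 3.68 and 8.94 around the chromosome median of 4.73, and the highest peak, of 43.8-fold, is on gl000225.

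Highly enriched peaks were not more frequent on the contigs. Of 392 peaks, 23 reached 10-fold (5.87%, exact 95% interval 3.76% to 8.67%), against 7.16% on chromosomes 1 to 22, a value inside that interval. Among peaks with a −log10 q of at least 5 they were the smaller share on contigs, at 8.68% of 265 peaks (exact 95% interval 5.58% to 12.7%), against 13.7% on the chromosomes. All 23 passed that limit, which kept 265 of 392 contig peaks and 83820 of 160723 chromosome peaks. On contigs it thus changed only the total. The same held on the chromosomes, where the 13.7% are the same 11506 peaks of 10-fold or more as without the limit. The smaller share is therefore not separate from the difference in −log10 q described below. The 23 peaks lay on 13 contigs, 8 of them on gl000225. At 20-fold or more there were 3 contig peaks (0.765%), against 1455 on the chromosomes (0.905%). The highest was a peak of gl000225 at 103683 to 104357 with 43.8-fold enrichment and a −log10 q of 512. The next was on gl000216 at 170830 to 171644 with 22.4-fold (−log10 q 111), and the third was on gl000206, a contig of chromosome 17, at 9985 to 13267 with 20.5-fold (−log10 q 55.2). The highest peak of the list on chromosomes 1 to 22 had 319-fold.

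Elsewhere the highest peak of a contig was mostly between 5-fold and 15-fold. Among unplaced contigs it was 17.9-fold on gl000212 (122948 to 123104), 12.1-fold on gl000237 (555 to 2662), 11.3-fold on gl000220 (160921 to 161691), 10.4-fold on gl000217 (44120 to 45411) and 10.1-fold on gl000234 (10715 to 11086). It was 9.23-fold on gl000229 (17325 to 19855), 8.95-fold on gl000231 (19452 to 20259), 8.86-fold on gl000228 (110467 to 111372), 8.42-fold on gl000219 (44751 to 45444) and on gl000214 (112529 to 112699), 7.79-fold on gl000243 (26575 to 26812), 7.44-fold on gl000211 (102483 to 103433), 7.41-fold on gl000222 (82723 to 84954), 5.49-fold on gl000249 (13951 to 14161) and 5.45-fold on gl000224 (102361 to 102898). The unplaced contigs thus reached both ends of this range. Among unlocalised contigs the highest peak was 14.4-fold on gl000209 of chromosome 19 (70162 to 70844), 13.8-fold on gl000202 of chromosome 11 (4384 to 4663), 12.6-fold on gl000193 of chromosome 4 (12217 to 12665) and 11.0-fold on gl000194 of chromosome 4 (10651 to 10791). It was 9.54-fold on gl000204 of chromosome 17 (57284 to 58751), 9.22-fold on gl000192 of chromosome 1 (410068 to 410292), 9.15-fold on gl000201 of chromosome 9 (32586 to 32875), 6.89-fold on gl000195 of chromosome 7 (33167 to 33604) and 6.25-fold on gl000197 of chromosome 8 (18275 to 19799).

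What set the contig peaks apart was the −log10 q that went with a given fold. The median −log10 q was 7.63 on contigs (exact 95% interval 6.67 to 8.99) and 5.21 on chromosomes 1 to 22, although the median folds were alike. The excess lay on the unplaced contigs, with a median of 11.3 (9.10 to 13.4), while the unlocalised contigs had 5.53 (4.72 to 6.29). The median folds of these groups were 4.62 on unplaced and 4.81 on unlocalised contigs. At each level of fold the contig peaks had the higher median −log10 q. Under 4-fold it was 3.31 on contigs (127 peaks) and 2.62 on chromosomes, and between 4-fold and 6-fold it was 6.31 on contigs (157 peaks) and 5.33 on chromosomes. Between 6-fold and 10-fold it was 17.3 on contigs (85 peaks) and 11.9 on chromosomes, and at 10-fold or more it was 55.2 on contigs (23 peaks) and 30.2 on chromosomes. Without gl000225 the contig medians at these 4 levels were smaller, at 3.06, 6.07, 16.3 and 43.4. The higher −log10 q was not shared by all contigs. Of the 27 contigs with 5 or more peaks, the median −log10 q of 15 lay above the range of chromosome medians, of 5 within it and of 7 below it.

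A low fold with a very small q was rare on the chromosomes and common on a few unplaced contigs. A fold under 5 together with a −log10 q of 10 or more was found for 52 of 392 contig peaks (13.3%, exact 95% interval 10.1% to 17.0%), against 0.0516% on chromosomes 1 to 22 (83 of 160723). No single chromosome exceeded 0.138% (chromosome 8). Of the 52 peaks, 51 lay on unplaced contigs (20.8% of their 245 peaks) and 1 on an unlocalised contig, gl000199 of chromosome 9 (0.680% of 147 peaks). They were spread over 9 contigs. Contig gl000225 held 21 (of 49 peaks), gl000220 held 9 (of 18), gl000216 held 7 (of 12), gl000224 held 5 (of 9), gl000228 held 4 (of 28) and gl000214 held 3 (of 8), and gl000199, gl000219 and gl000229 held 1 each. The share was 9.04% without gl000225 and 4.79% without gl000225, gl000220 and gl000216. The number of genomic copies of these sequences in U2OS and their number of reads were not measured here, and their part in these values was not tested.

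**Figure D2:**
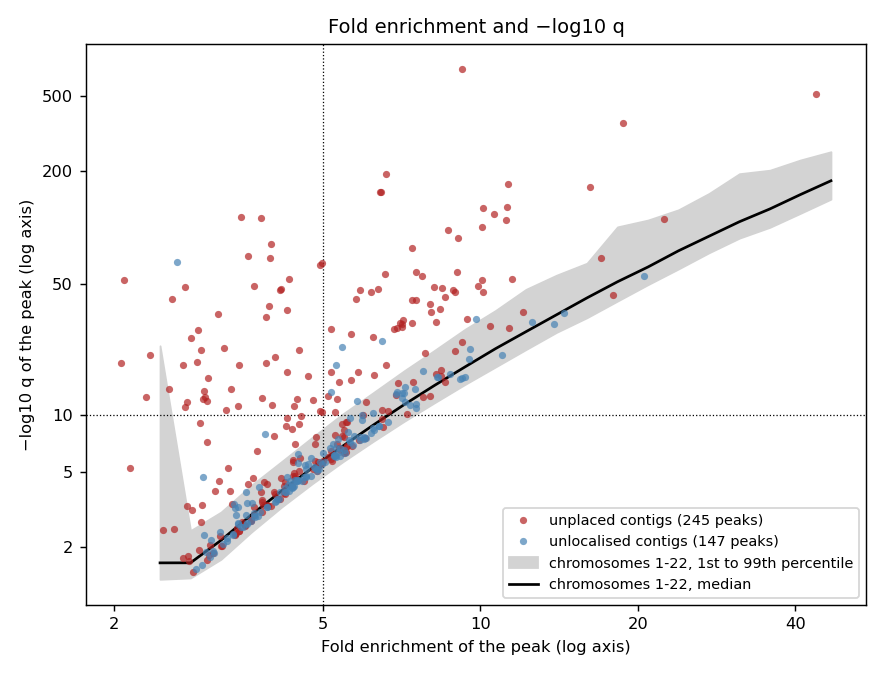
Each contig peak by its fold enrichment (horizontal log axis) and −log10 q (vertical log axis), with unplaced contigs in red, unlocalised contigs in blue and chromosomes 1 to 22 as a grey band (1st to 99th percentile at each fold) with its median line. Dotted lines mark a fold of 5 and a −log10 q of 10, and the upper left field holds 51 peaks of unplaced contigs and 1 of unlocalised contigs.

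Contig gl000225, the one with most peaks, combined a median fold near that of the chromosomes with high −log10 q values. Its 49 peaks ran between positions 160 and 175535 at 279 peaks per Mb and covered 21.5% of that stretch. Their folds lay between 2.34 and 43.8 with a median of 4.68, close to the chromosome median, while no peak had a −log10 q below 6.01 and the median was 26.9. On gl000216 all 12 peaks lay between 132177 and 171644. The lowest −log10 q there was 10.5 and the median 48.6, with a median fold of 4.46. Its 3 peaks of more than 10-fold had 16.2-fold, 18.7-fold and 22.4-fold enrichment. Contig gl000204, assigned to chromosome 17, had nearly the same density as the densest unplaced contigs (363 peaks per Mb, 26.2% covered) but a median −log10 q of 7.04 at a median fold of 5.37, and none of its 29 peaks combined a low fold with a −log10 q of 10 or more.

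Contig gl000220 is known to carry copies of the ribosomal RNA gene unit, from which the cell transcribes the RNA of its ribosomes, and it held the smallest q on any contig. That peak, at 124973 to 125480, had a −log10 q of 690 at 9.22-fold. Of the contig's 18 peaks, 15 had a −log10 q of 10 or more, and the median fold of these 15 was 4.14. The 3 that did not lay among the first 4 peaks of the contig, before position 96211, where fold was 2.71 to 6.06 and −log10 q 1.75 to 11.8. No annotation of hg19 was used here, so the peaks are not assigned to parts of the gene unit.

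The peaks of gl000220 came in a repeated set. A series of 4 peaks between 106499 and 118107 recurred between 150417 and 161691, with the starts of matching peaks 43918 to 43976 bp apart (mean 43952 bp). The pairs are given with the set further along the contig second. The first pair had 2.80-fold and 2.89-fold enrichment with −log10 q of 25.8 and 28.5, and the next had 4.14-fold and 4.17-fold with 46.3 and 46.9. The third pair, the widest peaks of the contig with 7482 bp in 4 pieces and 7523 bp in 3 pieces, had 6.43-fold and 6.47-fold with 154 and 153. These 3 pairs differed by 1.01-fold to 1.03-fold in enrichment. The last pair differed more, with 6.60-fold at a width of 1134 bp and 11.3-fold at a width of 771 bp, a ratio of 1.71. The narrower of these is the last peak listed on the contig. Its distance from the end of the contig was not examined, so the widths and folds of this pair may not be comparable. The 6 peaks between the sets had 2.06-fold to 9.22-fold enrichment and −log10 q of 18.9 to 690. The sets share sequence by the nature of the repeat, so they are not independent measurements.

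**Figure D3:**
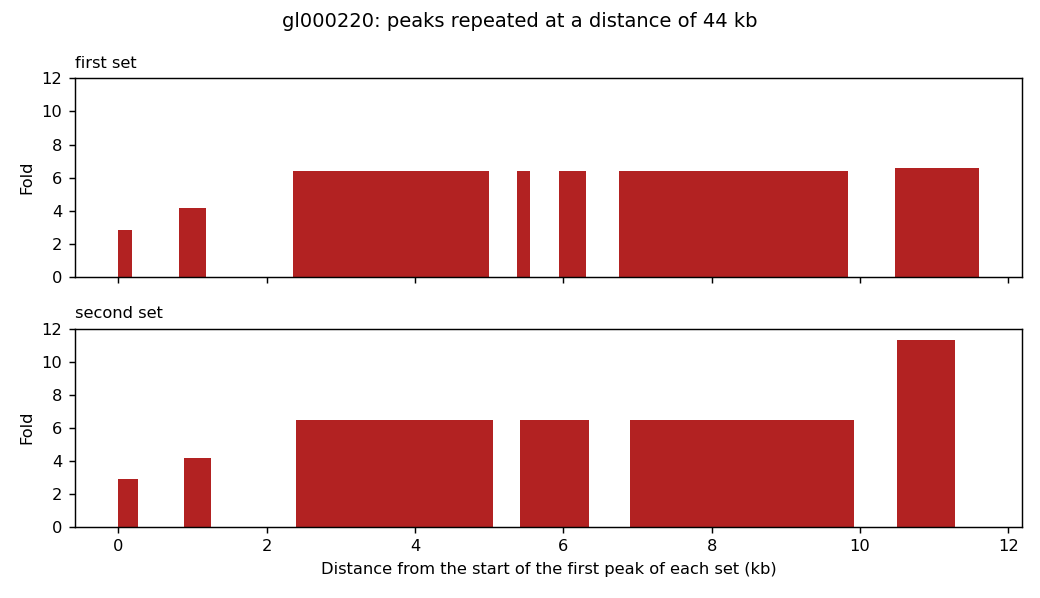
Pieces of the 4 peaks of each set on gl000220, as bars of the peak's fold enrichment (vertical axis) over the distance from the start of the set in kb (horizontal axis). The first 3 peaks of the sets have nearly the same place and fold, and the last has 6.60-fold in the first set and 11.3-fold in the second.

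Contig gl000228 carried an evenly spaced row of peaks. Its 13 peaks of 6-fold or more from 70775 onward followed each other at 12 successive spacings of 3288 to 3331 bp, with a mean of 3308 ± 14.3 bp (SD over the 12 spacings), over 40.6 kb. The row was chosen after its spacing was seen. With spacings compared in the same way (peaks of 6-fold or more, successive spacings within 60 bp), the longest run was 3 spacings on chromosomes 1 to 22 and 1 on any other contig. With peaks of any fold it was 6 on gl000228, since other peaks lie inside the row, 4 on the chromosomes and 2 on any other contig. With successive spacings held to within 30 bp it was 5 on gl000228 and 2 on the chromosomes. The folds in the row were 6.24 to 8.86 (mean 7.50 ± 0.770, SD over 13 peaks) and the −log10 q values 26.1 to 46.6.

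Some places of the unit were covered in every unit of the row and others in none. The 13 peaks were present as 32 pieces, and 11 of them were cut. Units were laid over each other at the start of each row peak, which fixes coverage at that start. Counted in bp from there and with all pieces of the contig, all 12 units were covered at 0 to 236, at 680 to 881 and at 2189 to 2204, and no unit was covered at 1316 to 1540 or at 2412 to 3287. In between, coverage differed between units, with 4 of 12 covered at 500 bp, 5 at 1000 bp and 1 at 2000 bp. Pieces hold only bases shared with replicate 2, so a place without a piece can lie inside a peak of replicate 1. Row peaks were 906 to 2412 bp wide between their outer pieces (median 2255 bp). Most of them thus ran across 1316 to 1540, whereas 2412 to 3287 lay beyond the outer pieces of every row peak. At 2189 to 2204 bp the row peaks themselves covered 8 of the 12 units. The other 4 units were covered there by 4 separate peaks of 4.41-fold to 5.67-fold enrichment, which began 2083 to 2181 bp from the start of their unit. Before the row there were 9 peaks with 3.40-fold to 8.14-fold enrichment and −log10 q of 2.32 to 48.1, and after it 2 peaks with 3.15-fold and 2.09-fold and −log10 q of 34.6 and 52.4. The sequence of the units was not examined, and how reads that match several places were treated is unknown. The peaks of the row are therefore not taken as repeated measurements.

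**Figure D4:**
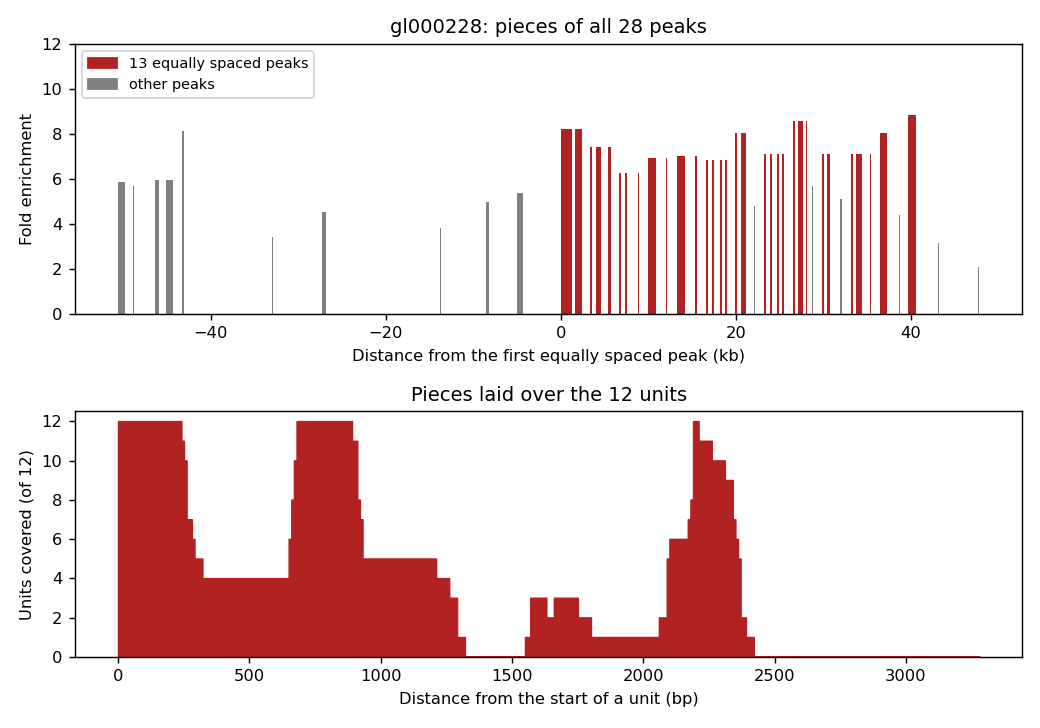
Above, the pieces of the 28 peaks of gl000228 as bars of fold enrichment over the distance from the first peak of the row in kb, with the 13 equally spaced peaks in red. Below, the number of the 12 units covered by a piece at each distance in bp from the start of a unit, with 3 places covered in all 12, the third of them in 4 units by peaks outside the row. A place without a piece can lie inside a peak of replicate 1, since pieces hold only bases shared with replicate 2.

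Contig peaks were somewhat wider than chromosome peaks and were cut about as often. The median width, counted between the outer ends of a peak's pieces, was 333.5 bp on contigs (exact 95% interval 279 to 388 bp) and 276 bp on chromosomes 1 to 22, and the median of 12 contigs lay above the range of chromosome medians (204 to 396 bp), of 8 within it and of 7 below it. This order turned round among peaks with a −log10 q of at least 5, where the ratio of medians (contigs over chromosomes) was 0.885, against 1.21 among all peaks. That limit kept 265 of 392 contig peaks and 83820 of 160723 chromosome peaks, so it thinned the chromosomes more. Replicate 2 cut 71 of the 392 contig peaks into 2 or more pieces (18.1%, exact 95% interval 14.4% to 22.3%), against 15.2% on the chromosomes, which is inside that interval. The cut peaks lay on 21 contigs, 50 in 2 pieces, 13 in 3 and 8 in 4 or more. The widest peak, at 78354 to 87032 on gl000193 of chromosome 4, spanned 8679 bp in 6 pieces at 5.30-fold. The peak in most pieces, at 34680 to 43234 on gl000218, spanned 8555 bp in 7 pieces at 8.24-fold.

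On the contigs that had 5 or more peaks, the peaks were closer together than over whole chromosomes. They were not closer than in 100 kb chromosome windows with 5 or more peaks, a filter that leaves out sparse windows. Counted between the first and last peak of a contig, the density was 134 peaks per Mb, against 57.5 peaks per Mb on chromosomes 1 to 22 counted in the same way, and pieces covered 8.24% of the stretch on contigs and 2.97% on chromosomes. The density on contigs was 2.33 times that on chromosomes among all peaks and 4.05 times among peaks whose −log10 q reached 5. That limit kept 265 of 392 contig peaks and 83820 of 160723 chromosome peaks, so it thinned the chromosomes more. Contigs left with fewer than 5 peaks dropped out. Contigs are short, and those with fewer than 5 peaks had to be left out, so the chromosomes were also divided into 100 kb windows and the 9386 windows with 5 or more peaks were kept. The filters are unlike, since a window needed its 5 peaks within 100 kb and a contig over any length. The stretch between first and last peak was 434 kb on gl000192 and 13.9 kb on gl000231. Part of the order against windows is thus set by how the windows were selected. The median density was 161 peaks per Mb over the 27 contigs and 170 peaks per Mb over these windows, the pooled density was 134 peaks per Mb on contigs and 187 peaks per Mb in windows, and the median share covered was 9.83% over contigs and 6.47% over windows. Contig densities ran between 51.2 peaks per Mb (gl000217) and 394 peaks per Mb (gl000201). The median gap between neighbouring peaks was 2530.5 bp on these contigs and 3008 bp on chromosomes. Lengths of the contigs were not used here.

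**Figure D5:**
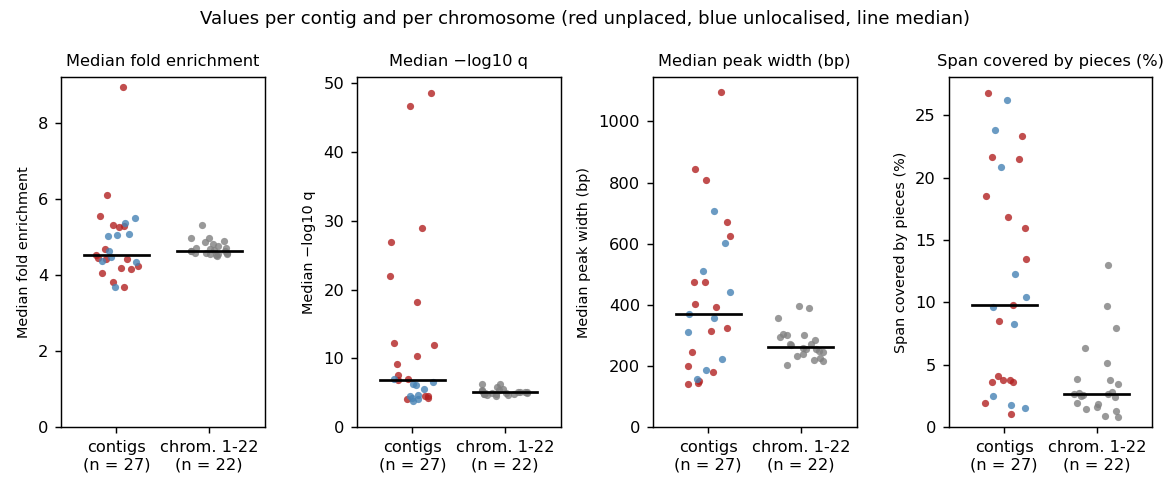
Median fold enrichment, median −log10 q, median peak width in bp and the share of the stretch between first and last peak that pieces cover in percent, 1 point per contig with 5 or more peaks (n = 27, unplaced red, unlocalised blue) and 1 per chromosome (n = 22, grey), with lines at the medians of the points. Contigs spread on both sides of the chromosomes in fold and width, and unplaced contigs reach a median −log10 q of 48.6, against at most 6.35 on a chromosome.

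The share of replicate 1 peaks that stayed in the shared list was near that of the chromosomes, but its value depended on how numbers were counted. The peaks of replicate 1 are numbered along the genome, so the numbers absent between the first and last listed peak of a contig count peaks that were not retained, if numbering was consecutive. By that count 392 of 508 contig peaks were retained (77.2%, exact 95% interval 73.3% to 80.7%), against 71.5% on chromosomes 1 to 22. The first and last peak of each contig are retained by construction, which weighs more on a contig with few peaks. With the numbers absent between neighbouring sequences split evenly and counted too, the share was 71.1% on contigs.

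With few contig peaks per chromosome, the median fold of unlocalised contigs could not be told apart from that of the chromosome to which they are assigned. The contigs belong to 9 chromosomes, 8 of which had 5 or more contig peaks. The median fold was higher on the contigs than on the parent chromosome in 5 of these and lower in 3, and in none did the parent's median fall outside the exact 95% interval of the contig median, with 6 to 38 contig peaks each. On chromosomes 7 (6 peaks) and 11 (8 peaks) that interval ran between the lowest and the highest peak, at 3.06 to 6.89 and at 4.37 to 13.8. Such wide intervals cannot exclude a difference. On chromosome 17 the median fold was 5.24 on 3 contigs and 4.97 on the chromosome, on chromosome 1 it was 4.37 on 2 contigs and 4.77 on the chromosome, and on chromosome 7 it was 3.68 on 1 contig and 4.63 on the chromosome. Peaks were wider on the contigs of 3 of the 8 chromosomes, among them chromosome 11 with 707.5 bp on gl000202 (8 peaks) and 301 bp on the chromosome. The gap between neighbours was shorter on the contigs of 5 of the 8 chromosomes. It was longest on the contigs of chromosome 1, at 20009 bp, against 2682.5 bp on the chromosome itself.

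No contig peak had a replication timing class. Of the 161869 named intervals in the 6 timing lists, 0 lay on an unplaced or unlocalised contig. Whether contigs were left out before the classes were assigned is not stated in the labels or the files. The numbering of the intervals ran to 162892 and lacked 1023 numbers. At the 8 boundaries between chromosomes where only contigs sort in between, 351 numbers were absent, against 354 listed contig peaks, and at 6 of the 8 the counts were equal. At the 14 boundaries with neither contigs nor alternative haplotypes in between, 0 numbers were absent. Where alternative haplotypes sort in between, 397 numbers were absent between chromosomes 6 and 7 and 144 between chromosomes 17 and 18. The rest of the 1023 lay at none of the boundaries between chromosomes. How intervals at contigs were built from the listed peaks is not known here, so the counts need not be equal.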

How the data were processed

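Nascent strand DNA of 2 U2OS libraries was sequenced, with alignment and peak calling by BWA and MACS2 on hg19 according to the submitters' processing notes, which give no versions. The authors deposited 1 broad peak list with peaks of replicate 1 cut to the bases shared with replicate 2. Its fold enrichment (a ratio) and its −log10 q are, per the peak names in the deposited file, the authors' values for the whole peak of replicate 1. The score column of the 6 deposited timing lists holds the constant 1000 and was not used as a measurement. Read depth is unknown.

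Peaks were grouped by name, and contigs were told by sequence name. Width spans the outer ends of a peak's pieces. Intervals are exact binomial at 95%, for medians by order statistics. No test was made, because regions of 1 intersected list are not replicates. Contigs with 5 or more peaks have values of their own, and single peaks were named by rank of fold, width and pieces, with those of gl000216, gl000220 and gl000228 chosen after their values were seen. The members and lists were chosen with earlier results of these data known. The rule of a fold under 5 with a −log10 q of 10 or more, the levels of fold, the 100 kb windows, the paired sets, the equal spacing (6-fold, 60 bp) and the counts of absent timing numbers were chosen after the data were examined. Sequence content, contig lengths and gene annotation of hg19 were not used here. The run search was tested on simulated data. The alternatives tried were a minimum −log10 q of 5, a width of at least 200 bp, pieces as units, the largest contig left out, only chromosomes with unlocalised contigs for comparison, summed piece length, covered share and other counts of absent numbers. Python 3.11.15 was used with scipy 1.17.1, pandas 2.3.3, numpy 2.4.6 and, for figures, matplotlib 3.10.9.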

Additional observations from a re-analysis of the deposited data

How the results depend on the processing

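No paired analysis was possible because both libraries enter only as 1 intersected list of 1 group, and for the same reason neither library could be left out. With a −log10 q of at least 5, contig peaks had a median fold of 5.54, 0.883 times that of chromosomes 1 to 22, a median width of 452 bp, 0.885 times that of the chromosomes and so reversed, 23.8% cut, 8.68% at 10-fold or more, against 13.7% on the chromosomes (a difference of -5.05 percentage points), and 4.05 times their density. This limit kept 265 of 392 contig peaks and 83820 of 160723 chromosome peaks, so these values are not separate from the difference in −log10 q. With a width of at least 200 bp, 241 contig peaks remained, with a median fold of 5.51, a median width of 675 bp and 29.5% cut. With each piece as the unit the median fold was 5.18 and the cut share 35.7%. Counting numbers between sequences gave a retention of 71.1%. Against 100 kb windows with 5 or more peaks the pooled density of contigs was 0.714 times theirs, and so reversed from 2.33 times that of whole chromosomes. That filter leaves out sparse windows, so part of the reversal is set by the selection. Peaks of low fold and high −log10 q were 4.59% of contig peaks at a fold under 4 with a −log10 q of 20 or more, 9.04% without gl000225 and 4.79% without the 3 contigs that held most. The run on gl000228 was 6 spacings with peaks of any fold and 5 with a tolerance of 30 bp (4 and 2 on the chromosomes). The other 46 values stayed within the limits set for them, which were the exact interval of the main value or, for counts, densities and runs, a fixed factor. Some of the 46 could not change, since a setting that alters only the comparison leaves the contig values as they were. Among the 46, the ratio of median folds was 0.987 against the chromosomes with unlocalised contigs, below 1, where it was 1.01 against chromosomes 1 to 22. Density per contig length and sequence content were not run. Causes were not tested beyond what each alternative's construction shows. Depth behind each peak is unknown.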
